A study of Mus musculus with 8 samples.

Results

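The genes described here encode the MHC class II presentation machinery together with the surface proteins Cd83 and Cd86. The members were 10 named genes, found by symbol in the count table: H2-Aa, H2-Ab1, H2-Eb1, Cd74, Ciita, H2-Oa, H2-Ob, H2-DMa, Cd83 and Cd86. All 10 were among the 19191 gene rows, and all 10 were among the 14274 rows with enough counts to be tested. The cells were regulatory T (Treg) cells from C57BL/6 mice, isolated from large intestine lamina propria by cell sorting. KO cells carried the genotype Ahrf/- Foxp3Yfp-Cre and WT cells the genotype Ahrf/+ Foxp3Yfp-Cre, with 2 RNA-seq libraries of each. Both genotypes thus carried Cre made from the Foxp3 locus and a floxed Ahr allele. The second allele was null in KO and intact in WT throughout the mouse, so WT Treg cells keep a single working copy, and cells without Cre keep a single copy in KO and both in WT. Ahr encodes the aryl hydrocarbon receptor, a ligand-activated transcription factor, and KO against WT asks which Treg transcripts differ when it is lost. The sources used here give no ages and do not say whether the libraries of a genotype came from separate animals. The p-values therefore reflect the spread among these 4 libraries, and that spread may be technical.

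MHC class II molecules are heterodimers that carry peptides from endocytosed proteins to the cell surface, where CD4 T cells read them. In the mouse H2-Aa and H2-Ab1 encode the alpha and beta chains of I-A, H2-Eb1 encodes the beta chain of I-E, and Cd74 encodes the invariant chain that guides the dimer and blocks its groove. H2-DM then removes the last fragment of the invariant chain, H2-O holds H2-DM back, and Ciita is the coactivator that switches the whole set on. B cells, macrophages and dendritic cells make the set constitutively, and mouse T cells are not known for it, so its level in sorted Treg cells also gauges other cells in the sort. Cd83 keeps class II and Cd86 at the surface by opposing the ubiquitin ligase March1, and Cd86 is a ligand of the T cell receptors Cd28 and Ctla4.

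Library totals ran from 26862922 to 62402450 counts. Libraries numbered 2 were deeper than libraries numbered 1 in both genotypes. In both genotypes 2.56% of tested genes were at least 1.5-fold higher in library 1 and 5.31% were at least 1.5-fold higher in library 2, so values are also given within each replicate number. Lars2, a gene whose locus holds a stretch of ribosomal RNA sequence, took 0.0633% and 0.724% of counts in KO libraries 1 and 2, against 0.0367% and 1.665% in WT libraries 1 and 2. Its share was higher in both libraries numbered 2, and the part of library quality in the differences between replicate numbers was not tested. The Ahr gene itself stood at 536 and 518 CPM in KO libraries 1 and 2, against 581 and 539 CPM in WT libraries 1 and 2. CPM is a count scaled to 1000000 of the library total times its TMM factor, a scaling factor estimated from the genes in common. Counts over the whole gene do not show the deleted part, so they check neither the deletion nor the labels. Foxp3, the defining Treg gene, stood at 250 and 259 CPM in KO against 280 and 252 CPM in WT. Transcript lengths were not used, so levels below are compared between libraries and never between genes.

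The 4 class II chain and chaperone genes differed more between replicate numbers than between genotypes. H2-Aa (chromosome 17, 34406276 to 34424772, minus strand, mm9) stood at 82.2 CPM in KO library 1, 24.5 CPM in KO library 2, 100.3 CPM in WT library 1 and 40.2 CPM in WT library 2. Library 1 was thus 3.36 times as high as library 2 in KO and 2.49 times as high in WT, and the genotypes overlapped. H2-Ab1 (chromosome 17, 34400154 to 34406363) stood at 51.1 and 20.9 CPM in KO libraries 1 and 2, against 72.8 and 27.4 CPM in WT libraries 1 and 2. H2-Eb1 (chromosome 17, 34442828 to 34453144) stood at 49.98 and 19.7 CPM in KO libraries 1 and 2, against 67.9 and 31.95 CPM in WT libraries 1 and 2. Both beta chains had the order of H2-Aa, with WT library 1 highest and KO library 2 lowest. Cd74 (chromosome 18, 60963502 to 60972300) stood at 241.5 and 125.9 CPM in KO, against 321.2 and 141.4 CPM in WT. Again each library numbered 1 lay above both libraries numbered 2. The annotated ends of H2-Aa and H2-Ab1 overlap by 88 bases on opposite strands. Unless the reads keep their strand, which the sources used here do not say, those from that stretch cannot be assigned to either gene.

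**Figure D1:**
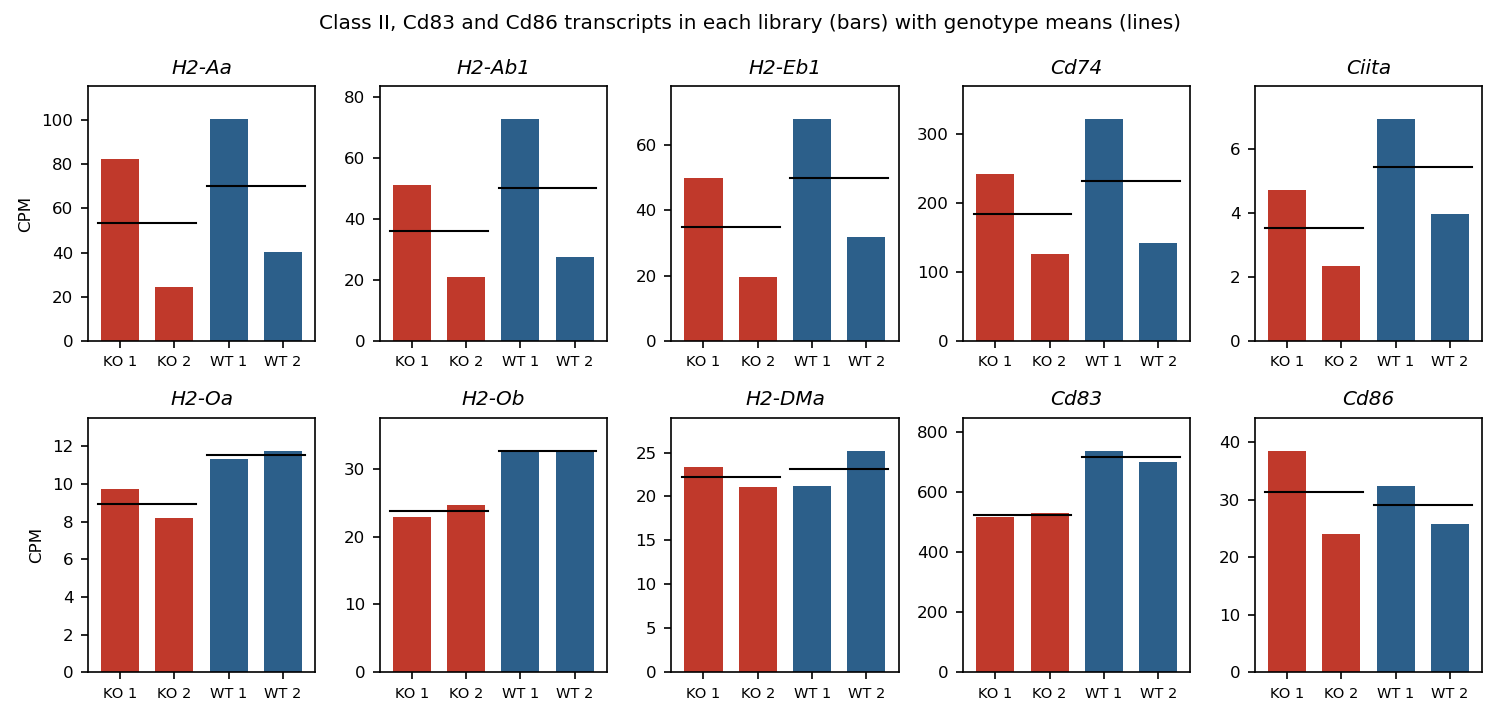
CPM (y axis, starting at 0, own scale per gene) of the 10 genes in the 2 KO and 2 WT libraries (bars), with the mean of each genotype as a line. In the top row library 1 stands above library 2 in both genotypes, while for H2-Oa, H2-Ob and Cd83 both KO bars stand below both WT bars.

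Within each replicate number all 4 of these genes were lower in KO, but the pooled test, with genotype as its only term, did not call them. H2-Aa averaged 53.4 ± 40.9 CPM in KO and 70.3 ± 42.5 CPM in WT (SD, n = 2 each), a log2 fold change of -0.40 ± 0.65 (standard error, 95% interval -2.03 to 1.24). Its log2 ratio of KO over WT was -0.29 between libraries 1 and -0.72 between libraries 2. The pooled log2 fold changes of H2-Ab1, H2-Eb1 and Cd74 were -0.47 ± 0.58, -0.52 ± 0.52 and -0.33 ± 0.46, and the adjusted p of all 4 genes was 1.00 (edgeR's quasi-likelihood test, Benjamini-Hochberg over all tested genes). Every edgeR value and call given here comes from that fit. Their ratios within libraries 1 and within libraries 2 were -0.51 and -0.39 for H2-Ab1, -0.44 and -0.69 for H2-Eb1, and -0.41 and -0.17 for Cd74. The sign of these pooled values changed when single libraries were left out. Without KO library 2 they became 0.23 for H2-Aa, 0.04 for H2-Ab1, 0.01 for H2-Eb1 and 0.06 for Cd74. Without WT library 1 they became 0.40, 0.39, 0.12 and 0.38 in the same order. Such fits compare unequal mixes of the replicate numbers, between which these genes differed widely, so the changed signs mix genotype with replicate number. The summed CPM of the 4 genes was 424.9 and 191 in KO libraries 1 and 2, against 562.2 and 241 in WT libraries 1 and 2. KO therefore held 0.756 of the WT sum between libraries 1 and 0.7925 between libraries 2.

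Most macrophage and monocyte markers moved across the 4 libraries with the class II chains. The summed CPM of a list of 16 such markers was 134.5 and 58.1 in KO libraries 1 and 2, against 182.3 and 80.35 in WT libraries 1 and 2. The KO sum was 0.738 of the WT sum between libraries 1 and 0.723 between libraries 2. The class II sum divided by the marker sum was 3.16 and 3.29 in KO libraries 1 and 2, against 3.08 and 3.00 in WT libraries 1 and 2. Class II and marker sums thus kept nearly one ratio while each varied more than 2-fold. Csf1r, the receptor for macrophage colony-stimulating factor, stood at 24.7 and 12.6 CPM in KO against 36.0 and 16.2 CPM in WT. C1qa, a complement subunit made by tissue macrophages, stood at 14.2 and 2.38 CPM in KO against 21.97 and 6.39 CPM in WT. Its span was wider than that of any class II chain, and against the sum of C1qa, C1qb and C1qc the class II ratio was not constant, at 11.8 and 23.6 in KO against 9.93 and 14.5 in WT. Of the 15 markers tested, 12 were lower in KO within both replicate numbers, against 27.1% of all tested genes. Only 1, Cd14, was higher within both (log2 ratios 0.48 and 0.59), against 29.5% of all tested genes. Lyz1 (0.57 and -0.26) and Mertk (1.27 and -0.49) changed sign between the numbers. Of the 15, 0 were called by edgeR, DESeq2 or at an unadjusted p under 0.05, and the median log2 fold change was -0.57. The defining marker Cd68 was present in every library (6.42 and 4.65 CPM in KO, 7.67 and 4.804 CPM in WT), and Cd163 had at most 3 counts in any library. In bulk RNA fewer cells of a type and less RNA per cell cannot be told apart. The part of macrophages in the class II values was not tested.

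**Figure D2:**
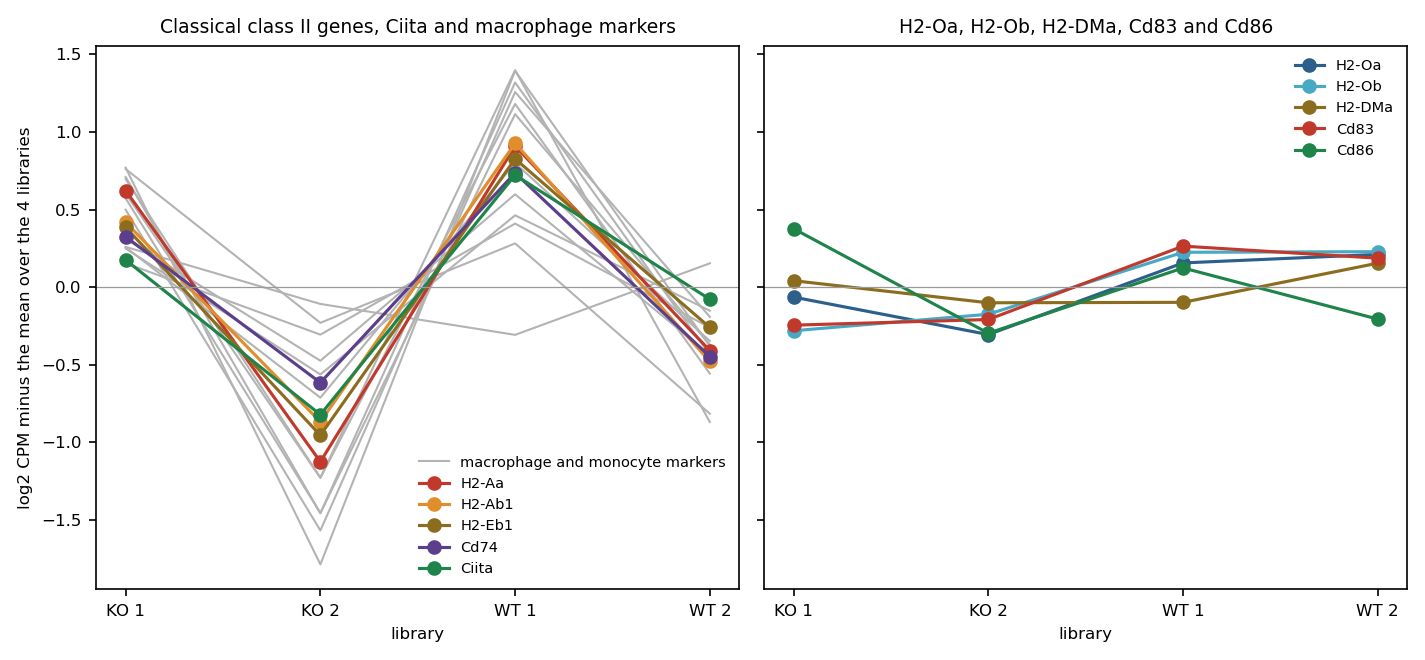
Log2 CPM of each gene minus its mean over the 4 libraries (y axis) by library (x axis; lines join the values of a gene and imply no order). Left, H2-Aa, H2-Ab1, H2-Eb1, Cd74 and Ciita (colours) follow the zigzag of most macrophage and monocyte markers with a mean of at least 2 CPM (grey); right, the other 5 members span less.

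Ciita had the lowest counts of the 10 genes and the same order of libraries. This master coactivator (chromosome 16, 10480237 to 10527657) had 145 and 124 counts in KO libraries 1 and 2, against 186 and 252 counts in WT libraries 1 and 2. These are 4.73 CPM (exact 95% Poisson interval 3.99 to 5.56) and 2.35 CPM (1.95 to 2.80) in KO, against 6.93 CPM (5.97 to 7.99) and 3.96 CPM (3.48 to 4.48) in WT. The intervals cover counting error only. The genotypes overlapped, since KO library 1 lay above WT library 2. Ciita had a log2 fold change of -0.62 ± 0.44 (95% interval -1.71 to 0.47), with -0.55 between libraries 1 and -0.74 between libraries 2 and an adjusted p of 1.00 (edgeR).

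Between replicate numbers, then, the members fell into groups by role. In both genotypes 5 of 10 members were at least 1.5-fold higher in library 1 than in library 2, namely the 4 chain and chaperone genes and Ciita, against 2.56% of all tested genes. None of the 10 was as much higher in library 2, against 5.31% of all tested genes. The library ratio was 2.02 in KO and 1.75 in WT for Ciita, 1.60 and 1.26 for Cd86, and between 0.839 and 1.18 in either genotype for H2-Oa, H2-Ob, H2-DMa and Cd83. The median over all tested genes was 0.997 in KO and 0.997 in WT. Among the macrophage and monocyte markers 12 of 15 passed the same fold, among B cell markers 0 of 15 and among Treg and T cell identity genes 0 of 10. So did 3 of 8 dendritic cell, 3 of 10 innate lymphoid and 1 of 2 neutrophil and mast cell markers tested. Of the plasma cell, epithelial, and stromal and endothelial markers 0 did. These ratios compare libraries and carry no test.

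**Figure D3:**
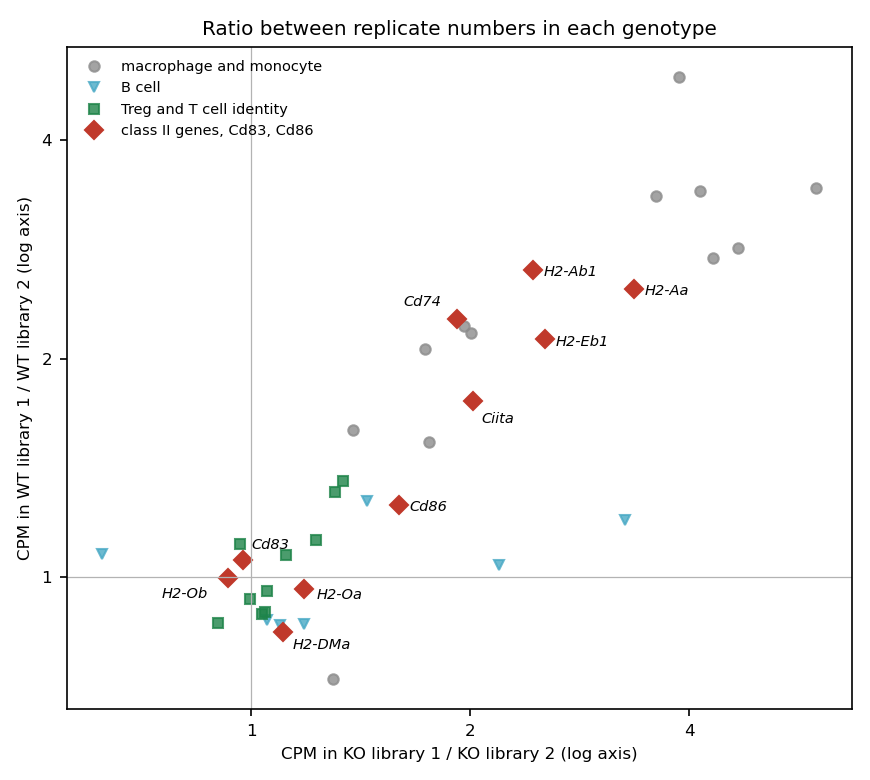
CPM in library 1 divided by CPM in library 2, in KO (x axis) and in WT (y axis), both on log axes, for the 10 members (diamonds) and for tested markers with a mean of at least 2 CPM. H2-Aa, H2-Ab1, H2-Eb1, Cd74 and Ciita lie among the macrophage and monocyte markers. H2-Oa, H2-Ob, H2-DMa and Cd83 lie near 1, where the Treg and T cell identity genes and some B cell markers, such as Cd79b and Ms4a1, also lie.

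Class II promoters carry a conserved module in which RFX binds an X box and NF-Y binds a Y box, and Ciita docks on the assembled complex. RefSeq promoter windows (GRCm38.p6, 250 bases before to 50 after the start) were at hand for 5 members. The core of the X box (GCAAC) followed after 20 to 30 bases by the Y box (TGATTGG) stood in 4 of them, H2-Aa, H2-Eb1, H2-Oa and H2-Ob, and in neither window of H2-DMa. Searched on both strands, the pair was in 0.103% of all 32851 windows (GCAAC alone in 35.2%, TGATTGG alone in 7.82%). Of 14 other class II route genes with a window, 1 held it, the beta chain gene H2-Eb2. The spacing was chosen after these windows were seen. The 130 bases before each start are shown, since the same pair sits in a gene set that split between replicate numbers, with GCAAC and TGATTGG in capitals, 5′ to 3′ along the gene.
H2-Aa, chr17:34287824-34287953, minus strand: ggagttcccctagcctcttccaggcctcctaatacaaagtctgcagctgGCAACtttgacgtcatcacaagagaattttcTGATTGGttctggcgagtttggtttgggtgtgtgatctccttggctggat
H2-Eb1, chr17:34305737-34305866, plus strand: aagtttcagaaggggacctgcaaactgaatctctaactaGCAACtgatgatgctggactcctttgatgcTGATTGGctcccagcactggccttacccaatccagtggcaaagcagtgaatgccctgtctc
H2-Oa, chr17:34092249-34092378, plus strand: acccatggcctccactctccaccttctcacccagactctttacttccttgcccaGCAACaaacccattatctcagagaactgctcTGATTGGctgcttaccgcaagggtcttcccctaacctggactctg
H2-Ob, chr17:34238775-34238904, plus strand: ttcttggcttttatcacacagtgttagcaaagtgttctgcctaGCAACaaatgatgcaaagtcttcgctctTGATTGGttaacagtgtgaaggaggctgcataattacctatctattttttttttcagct
The number of bases between the boxes was 26 in H2-Aa, 25 in H2-Eb1, 26 in H2-Oa and 23 in H2-Ob. The first pair of genes were at least 2-fold higher in library 1 in both genotypes, and the second pair were not. GCGTG, the core of the sequence that Ahr and its partner Arnt bind, was in none of the windows of the 5 members on either strand and in 32.4% of all windows. A match of letters is not a site in use, and its lack in these windows says nothing of other regulatory DNA.

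H2-Ob and H2-Oa, the beta and alpha chains of the H2-DM inhibitor H2-O, were lower in both KO libraries than in both WT libraries. H2-Ob (chromosome 17, 34375848 to 34390850) stood at 22.9 and 24.7 CPM in KO libraries 1 and 2, against 32.5 and 32.6 CPM in WT libraries 1 and 2. The genotypes did not overlap, and the 2 libraries of each genotype lay close together. H2-Ob had a log2 fold change of -0.45 ± 0.10 (95% interval -0.71 to -0.20), with -0.51 and -0.40 within libraries 1 and 2, and its p of 0.00541 did not pass adjustment over all tested genes (adjusted p = 1.00 in edgeR, 0.707 in DESeq2). H2-Oa (chromosome 17, 34229285 to 34232179) stood at 9.71 and 8.21 CPM in KO against 11.3 and 11.8 CPM in WT, again without overlap. Its log2 fold change was -0.37 ± 0.14 (95% interval -0.73 to -0.01, adjusted p = 1.00 in edgeR). The summed CPM of both genes was 32.6 and 32.9 in KO against 43.9 and 44.4 in WT, so that KO held 0.744 of the WT sum between libraries 1 and 0.7405 between libraries 2.

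H2-O is best known from B cells, whose markers were detected in every library. The summed CPM of 15 B cell markers was 36.2 and 28.7 in KO libraries 1 and 2, against 38.8 and 37.3 in WT libraries 1 and 2. Cd79b, a chain of the B cell receptor complex, stood at 7.755 and 6.56 CPM in KO against 8.27 and 9.61 CPM in WT. Ms4a1, which encodes CD20, stood at 3.06 and 2.80 CPM in KO against 2.64 and 3.08 CPM in WT. Of the 15 markers 11 were lower and 4 higher in the pooled test, 9 were lower within both replicate numbers, 0 were called by edgeR or DESeq2 and 0 had an unadjusted p under 0.05. Both KO libraries lay below both WT libraries for 6 of them, against 13.4% of all tested genes, and above for 1, against 13.5%. None was at 0 in any library. The part of B cells in the H2-Oa and H2-Ob values was not tested.

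H2-DMa, the alpha chain of the peptide editor H2-DM (chromosome 17, 34272127 to 34276046), followed neither pattern. It stood at 23.3 and 21.1 CPM in KO libraries 1 and 2, against 21.15 and 25.2 CPM in WT libraries 1 and 2. The genotypes overlapped, and KO was above WT between libraries 1 (log2 ratio 0.14) and below it between libraries 2 (-0.26). Its pooled log2 fold change was -0.07 ± 0.13 (95% interval -0.40 to 0.26, adjusted p = 1.00 in edgeR), which became 0.07 without WT library 2 and 0.00 without KO library 2. Of its partner chains, H2-DMb1 stood at 3.62 and 2.57 CPM in KO against 4.77 and 3.75 CPM in WT. H2-DMb2 stood at 4.73 and 4.61 CPM in KO against 3.835 and 5.48 CPM in WT. Both beta chain genes are near-copies, so reads could be shared between them.

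Cd83 had the lowest p of the 10 genes. It is encoded on chromosome 13 (43880476 to 43898499, mm9) and held between 15877 and 44446 counts per library, where counting error is small. Cd83 stood at 517 and 531 CPM in KO libraries 1 and 2, against 736 and 698 CPM in WT libraries 1 and 2. Both KO libraries lay below both WT libraries, and the gap between genotypes was several times the gap within them. Cd83 averaged 524.0 ± 9.39 CPM in KO and 717 ± 27.3 CPM in WT (SD, n = 2 each), a log2 fold change of -0.45 ± 0.09 (95% interval -0.67 to -0.24). It was -0.51 between libraries 1 and -0.40 between libraries 2. The edgeR p of 0.00256 did not pass adjustment over all tested genes (adjusted p = 0.882), limma-voom did not call it (0.891), and the authors' deposited table gave an adjusted p of 0.0839. DESeq2 did call Cd83 lower (adjusted p = 0.0170), and lost the call without any one of the 4 libraries (adjusted p from 0.538 to 1). The log2 fold change itself stayed between -0.50 and -0.41 in those 4 fits.

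Unlike the class II chains, Cd83 did not follow the macrophage markers between replicate numbers. The count of Cd83 per count of H2-Ab1 was 10.1 in KO library 1 and 25.4 in KO library 2, against 10.1 in WT library 1 and 25.4 in WT library 2. It therefore more than doubled between replicate numbers and was the same in both genotypes within each number. The equality between genotypes holds for H2-Ab1 as the divisor and not for the other class II chains. Per count of H2-Ab1, H2-Aa stood at 1.61 and 1.17 in KO against 1.38 and 1.47 in WT. H2-Eb1 stood at 0.978 and 0.942 in KO against 0.934 and 1.165 in WT, and Cd74 at 4.73 and 6.01 against 4.415 and 5.155. Per count of Foxp3, Cd83 stood at 2.07 and 2.05 in KO against 2.63 and 2.77 in WT, with no overlap. H2-Ob behaved like Cd83 here, at 0.448 and 1.18 counts per count of H2-Ab1 in KO against 0.447 and 1.19 in WT.

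Cd86, a ligand that Ctla4 removes from presenting cells (chromosome 16, 36603955 to 36666163, minus strand), showed no steady difference. It stood at 38.5 and 24.1 CPM in KO libraries 1 and 2, against 32.3 and 25.7 CPM in WT libraries 1 and 2. KO held both the highest and the lowest library. The log2 fold change was 0.11 ± 0.25 (95% interval -0.51 to 0.73, adjusted p = 1.00 in edgeR), with 0.25 between libraries 1 and -0.09 between libraries 2. Without KO library 1 it was -0.27, and without WT library 2 it was -0.05. Cd80, the sister ligand, stood at 20.1 and 15.3 CPM in KO against 15.8 and 13.2 CPM in WT (log2 fold change 0.29 ± 0.18, adjusted p = 1.00 in edgeR).

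Set side by side, 8 of the 10 members were lower in KO within both replicate numbers, against 27.1% of all tested genes, and 0 were higher in both, against 29.5% of all tested genes. Between libraries 2 alone all 10 were lower, and between libraries 1 alone 8 were. Both KO libraries lay below both WT libraries for 3 members, Cd83, H2-Ob and H2-Oa, against 13.4% of all tested genes. The same 3 had an unadjusted p under 0.05 in edgeR, where 1.21% of tested genes were lower and 1.64% higher with such a p. The median log2 fold change was -0.43 over the 10 members and 0.01 over all tested genes. After adjustment edgeR called 0 of 10 members (0% of tested genes called lower), limma-voom called 0, and DESeq2 called Cd83 alone, where 0.1% of its genes were called lower and 0.167% higher. Members measured in the same library share its RNA, so they are not replicates of one another.

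**Figure D4:**
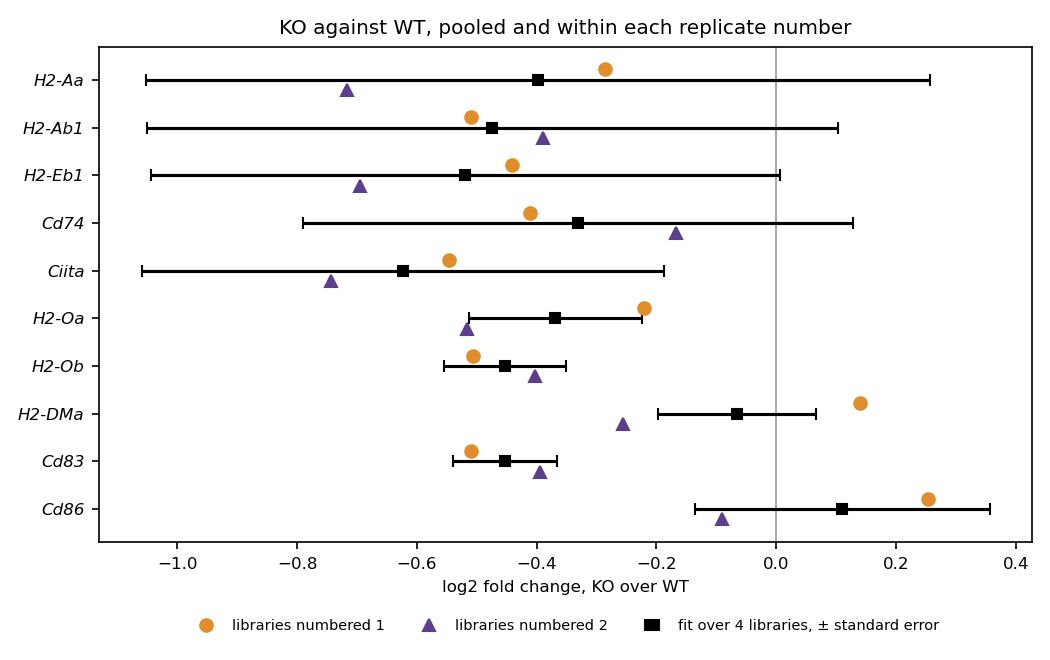
Log2 fold change of KO over WT (x axis) for the 10 members, as the fit over 4 libraries with its standard error (squares) and as the ratio between libraries numbered 1 (circles) and numbered 2 (triangles). For 8 genes both ratios lie below 0, and the bars of Cd83, H2-Ob and H2-Oa are short beside those of the class II chains.

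No other gene of the class II route was called by DESeq2 or by edgeR with genotype as its only term. Of 20 in the table and tested, 6 were higher and 14 lower in the fit, both tools called none, and the median log2 fold change was -0.02. At an unadjusted p under 0.05 edgeR had 1 higher and 0 lower. That one was Ctsd, the lysosomal protease cathepsin D, at 368 and 403 CPM in KO against 269 and 304 CPM in WT (log2 fold change 0.43 ± 0.10, adjusted p = 1.00 in edgeR and 0.219 in DESeq2). Ctsb, the protease cathepsin B, had 0.19 ± 0.09. Ctss, cathepsin S, which trims the invariant chain, had -0.02 ± 0.11 (95% interval -0.29 to 0.26), and Creb1, a factor that binds class II promoters, had 0.00 ± 0.13. The RFX subunit genes Rfx5, Rfxap and Rfxank, which are needed for class II transcription, had log2 fold changes of -0.12 ± 0.12, 0.15 ± 0.11 and -0.09 ± 0.11 and stayed at 16.2 to 47.5 CPM in every library. Ctsh and March1, both chosen after their values were seen, followed the replicate numbers. Ctsh, cathepsin H, stood at 9.68 and 5.16 CPM in KO against 14.2 and 7.91 CPM in WT, and March1 at 2.51 and 1.53 CPM in KO against 3.69 and 1.54 CPM in WT.

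Most costimulatory genes and most genes of the interferon route to Ciita had positive log2 fold changes. Of 14 costimulatory ligands and receptors 11 were higher and 3 lower, 0 were called by edgeR or DESeq2, and the median log2 fold change was 0.12. Ctla4, the receptor that binds Cd80 and Cd86 most tightly, stood at 3772 and 3619 CPM in KO against 3195 and 3044 CPM in WT (log2 fold change 0.24 ± 0.10, adjusted p = 1.00 in edgeR). Cd28 had 0.12 ± 0.09, Icos 0.06 ± 0.14 and Tnfrsf4, which encodes OX40, 0.15 ± 0.10. Of 9 genes on the route from interferon gamma to Ciita 8 were higher and 1 lower. Ifng, the cytokine gene itself, stood at 46.95 and 73.7 CPM in KO against 25.8 and 36.4 CPM in WT, and DESeq2 called it higher (log2 fold change 0.96 ± 0.27 in edgeR, adjusted p = 1.00 in edgeR and 0.0497 in DESeq2). Irf1, which helps activate Ciita, had 0.42 ± 0.27, Jak2 0.10 ± 0.16 and Ifngr1 0.11 ± 0.11, and neither edgeR with genotype as its only term nor DESeq2 called any of them.

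Class I genes, some of which lie in the same stretch of chromosome 17, had positive log2 fold changes, none of them called. Of 12 tested, 12 were higher and 0 lower, with a median log2 fold change of 0.11 and 0 called by edgeR or DESeq2. H2-K1 stood at 4312 and 4072 CPM in KO against 3956 and 3680 CPM in WT (0.13 ± 0.11), and H2-D1 had 0.11 ± 0.12. B2m, the shared light chain, had 0.13 ± 0.10, and Calr, a chaperone, had 0.09 ± 0.10. No class I gene was 1.5-fold higher in library 1 or in library 2 in both genotypes.

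Markers of further cell types that carry class II gave a mixed picture. Itgax, a surface integrin of dendritic cells and macrophages, stood at 5.51 and 1.68 CPM in KO against 8.56 and 2.39 CPM in WT and so followed the replicate numbers. Flt3, a receptor of dendritic cells, held 10 and 18 counts in KO against 3 and 24 counts in WT, and Clec9a held at most 10 counts in any library. Xcr1, a further dendritic cell marker, was well above these, at 9.91 and 7.17 CPM in KO against 9.01 and 6.66 CPM in WT. The summed CPM of the 12 dendritic cell markers, 121.7 and 145.1 in KO against 107.7 and 112.5 in WT, came mostly from Irf8, Zbtb46 and Bst2, and Irf8 and Bst2 are also expressed outside dendritic cells. Irf8 stood at 45.3 and 63.9 CPM in KO against 33.8 and 43.8 CPM in WT. Zbtb46 stood at 30.3 and 36.0 CPM in KO against 27.3 and 26.8 CPM in WT. Among innate lymphoid markers the sum was 966.7 and 832.9 in KO against 851.8 and 791.2 in WT, mostly from Cxcr6, Areg and Il7r, which T cells also express. Kit, a receptor of innate lymphoid and mast cells, stood at 6.16 and 4.92 CPM in KO against 12.25 and 10.7 CPM in WT, and DESeq2 called it lower (log2 fold change -1.05 ± 0.18 in edgeR, adjusted p = 0.857 in edgeR and 0.0294 in DESeq2). Il23r stood at 18.05 and 10.3 CPM in KO against 27.85 and 16.7 CPM in WT, and Ncr1 was at 0 in both libraries numbered 1. The plasma cell transcript Igj, at 131 and 343 CPM in KO against 122 and 249 CPM in WT, was higher in libraries numbered 2.

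The summed CPM of each remaining marker list did not have the library order of the class II chains. Some single genes in them did, among them Csf3r at low counts (15 and 7 in KO against 25 and 16 in WT). Epithelial markers summed to 20.9 and 32.4 CPM in KO against 20.3 and 20.3 CPM in WT. Both KO libraries lay above both WT libraries for 7 of 10 tested, against 13.5% of all tested genes. They lay below for 2, against 13.4%. Krt8, a keratin of simple epithelia, had 31 and 204 counts in KO against 0 and 8 counts in WT, and DESeq2 called it higher (log2 fold change 5.01 ± 1.03, adjusted p = 8.00e-04), while edgeR did not (adjusted p = 1.00). Stromal and endothelial markers summed to 116.7 and 189.5 CPM in KO against 120.9 and 180.8 CPM in WT, and 10 of 11 were at least 1.5-fold higher in library 2 in both genotypes. Neutrophil and mast cell markers summed to 1.17 and 0.851 CPM in KO against 1.19 and 1.51 CPM in WT, with Fcer1a at 0 in every library. Treg and T cell identity genes summed to 5534 and 5141 CPM in KO against 5118 and 5073 CPM in WT, and edgeR and DESeq2 called 0 of 10. The part of these cells in the class II values was not tested.

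Genes with the profile nearest to the class II chains were sought among 11307 tested genes with a mean of at least 2 CPM. Nearness was the root mean square difference of log2 CPM, centred on each gene's mean, over the 4 libraries. Beside the 4 genes that set the profile, the nearest 5 were Gm10222, Cxcl3, Fgd2, Tlr12 and Sash1, with differences from 0.05 to 0.12. Cxcl3, a chemokine that draws neutrophils, stood at 5.38 and 1.93 CPM in KO against 7.22 and 2.81 CPM in WT, in the order of H2-Ab1. Csf1r ranked 8, Ciita 24 and C1qc 36 among the 11307, whereas Cd86 ranked 410, H2-Oa 2142, Cd83 3340, H2-Ob 4962 and H2-DMa 6357. The genes nearest to Cd83 were Amica1, Prpf40b, Wbscr16, Trio and Rps6ka2, with differences from 0.02 to 0.03. Trio stood at 40.8 and 41.5 CPM in KO against 55.1 and 54.1 CPM in WT. The ranks describe these 4 libraries only.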

How the data were processed

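RNA-seq was done on sorted Treg cells, with RNA extracted in Trizol and on a column, ribosomal RNA removed and 50 bp single-end reads made on an Illumina instrument, per the labels' protocols. The 4 ATAC-seq samples were not used here. The deposited table gave whole-number counts per gene and library, without normalization, and the authors' adjusted p-value per gene, whose comparison its header does not state and which was read as KO against WT. TopHat2, DESeq and build mm9 are named, per the submitters' processing notes. Counter, annotation and strandedness were not given in the sources used here.

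Titles tied columns to samples. Genotypes were compared with edgeR 4.0.16 under R 4.3.3 (filterByExpr by group, TMM factors, quasi-likelihood F-test, genotype as the only term, Benjamini-Hochberg adjusted p under 0.05 over 14274 genes). Standard errors and intervals were taken from the F statistic, with 2 residual and 3.49 prior degrees of freedom. DESeq2 1.42.0 (17996 genes with an adjusted p), limma 3.58.1 (voom), other scalings and filters, a replicate block and fits without each library were alternatives. Log2 ratios within a replicate number used a prior count of 2. The scripts were tested on simulated data. The 10 members and the 14 gene lists (167 of 174 genes found) were chosen with earlier results of these data known. Named genes were the members, the genes of highest CPM and the called genes of each pathway list, the first and the highest of each marker list, and the nearest profiles. H2-DMb1, H2-DMb2, Cd80, Ctsh, March1, Clec9a, Xcr1, Rfx5, Rfxap, Rfxank, Ncr1, Cd163, Cd14, Lyz1, Mertk, Lars2, Krt19, Car1, Emr1, C1qb, C1qc and Fcer1a were named outside that rule, after their values were seen, and not every gene the rule takes is given. Precision is set by 124 to 44446 counts per member and library, a counting error of 8.98% to 0.474%, and reads carried no molecular identifiers.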

Additional observations from a re-analysis of the deposited data

How the results depend on the processing

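The count of called genes was 0 in the main test and moved to 52 without a filter on low counts, 48 with DESeq2, 458 with the replicate number as a block, and 0 to 2 when single libraries were left out. It stayed 0 with limma-voom, both other scalings, the stricter filter and an adjusted p under 0.1. The labels do not say that same-numbered libraries were paired, and with 2 pairs the data cannot settle it; their deviations correlated across genes at 0.641. With the replicate number as a block (1 residual degree of freedom), edgeR called 6 members lower, H2-Aa (-0.50, adjusted p = 1.94e-04), H2-Ab1 (-0.45, 4.79e-04), H2-Eb1 (-0.57, 2.36e-05), Cd74 (-0.29, 0.00742), H2-Ob (-0.45, 0.00151) and Cd83 (-0.45, 1.04e-05), but not Ciita (0.0579), H2-Oa (0.130), H2-DMa (0.857) or Cd86 (0.832). Over all 14274 tested genes that fit called 183 lower and 275 higher. Of the macrophage and monocyte markers that fit called Csf1r (-0.46), Emr1 (-1.05), C1qa (-0.96), C1qb (-0.87) and C1qc (-0.62) lower. Among the pathway lists it called 2 class II route genes (Ctsd higher, Ctsh lower), 2 costimulatory genes (Ctla4 and Pdcd1 higher) and 2 interferon route genes (Ifng and Irf1 higher), and among the other marker lists Igj, Irf8, Cxcr6, Krt8, Krt19 and Car1 higher and Il23r and Kit lower; Ifng was the 1 interferon route gene called without a filter and the 1 called by DESeq2. DESeq2 gave -0.46 for Cd83 and called it.

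Without single libraries the log2 fold change ran from -1.53 to 0.40 for H2-Aa, -1.26 to 0.39 for H2-Ab1, -1.34 to 0.12 for H2-Eb1, -0.89 to 0.38 for Cd74, -0.19 to 0.0684 for H2-DMa and -0.27 to 0.41 for Cd86, so the sign turned in each. It kept its sign for Ciita (-1.21 to -0.17), H2-Oa (-0.50 to -0.25), H2-Ob (-0.51 to -0.41) and Cd83 (-0.49 to -0.41). Such fits compare unequal mixes of the replicate numbers, and the lone library is assumed to vary like the others. The summed class II CPM had a log2 ratio of -0.38, and -0.46 without Cd74. With 2 libraries per genotype, a difference whose interval in the text reaches both signs cannot be told from none. The intervals of Cd83, H2-Ob and H2-Oa stayed negative, but the edgeR test with genotype alone called none of these genes after adjustment over all tested genes.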
